A study of Mus musculus with 8 samples.

Results

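Gene expression of the p53-restored fibroblast line Ind-8, in the asymmetric self-renewal (ASYM) state, was compared with that of the p53-null line Con-3, in the symmetric (SYM) state. The arrays were chosen by the cell line named in their labels, which takes 6 of the 8 arrays of the series, 3 of Ind-8 and 3 of Con-3. In ASYM cells, rises made up a larger share of the listed p53 targets, lysosomal genes and detoxification enzymes than of all genes, and falls a larger share of the listed genes of DNA replication, mitosis, DNA repair and chromatin. These gene lists were chosen with earlier results of these data known. The largest falls were in Ndn, Cd302 and S1pr3, and among the largest rises stood Ephx1, Sulf2 and the p21 gene Cdkn1a.

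Both lines derive from mouse fetal fibroblasts that lack p53. Ind-8 carries a wild-type mouse p53 cDNA behind a modified human metallothionein promoter, which zinc switches on. Con-3 is named in the labels as the congenic parent of Ind-8. The study calls it a vector control line and describes such control lines as transfected with the promoter vector that has no p53 insert. All cultures were kept for 48 h in medium with 65 µM ZnCl2 before harvest, and the medium of both lines held puromycin at 5 µg/ml, so zinc, the drug and the lack of the endogenous p53 gene were common to both groups. Only cultures whose number of division cycles met a quality limit were used. The labels call the 3 cultures of each line biological replicates, and the RNA of each was hybridized to 1 Affymetrix mouse 430 array. Since only 1 clone stands for each state, differences of state and of clone cannot be told apart. The 2 arrays of a further line, tI-3, entered the estimate of the spread, on which the standard errors and p-values rest. They entered no mean of Ind-8 or Con-3 and no log2 change of a profile. The mean levels that set the dim level and the brightest profile of each gene also included them. With these 2 arrays left out of the fit, 1873 profiles were up-regulated and 1733 down-regulated, against the 1970 and 1857 given below.

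p53 is a transcription factor that binds paired half-sites in DNA and activates genes of cell cycle arrest, cell death, metabolism and DNA repair, as well as the gene of its own inhibitor Mdm2. The p21 protein encoded by Cdkn1a inhibits cyclin-dependent kinases, which leaves pocket proteins bound to E2F factors and to the DREAM complex at the promoters of replication and mitosis genes, where they repress transcription. IMPDH makes xanthosine monophosphate and thereby sets the pace of guanine nucleotide synthesis.

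On replicate 3 of Con-3 a technical control stood apart from the other arrays. The 3 probe sets for 18S ribosomal RNA averaged 5.58, 6.02 and 5.83 (log2) on the ASYM arrays, 5.87 and 6.05 on SYM replicates 1 and 2, and 10.63 on SYM replicate 3. The 9 hybridization control probe sets averaged 9.62 to 9.72 on the other 5 arrays and 10.12 on that array. The tI-3 arrays gave 9.88 and 10.13 for these controls and 6.46 and 6.22 for 18S ribosomal RNA, so that only the 18S signal was raised on that array alone. Its gene values did not stand apart: the median absolute deviation from the line mean was 0.0827 on it and 0.0904 and 0.0649 on SYM replicates 1 and 2. Array medians lay between 6.13 and 6.20 (log2). Across value profiles, which are not independent, arrays of the same line correlated at an r of 0.994 to 0.996 over 6 pairs, and arrays of different lines at 0.98 to 0.988 over 9 pairs. The total counts of called profiles and of 2-fold changes are therefore also given without SYM replicate 3.

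By limma, 1970 of the 18172 distinct value profiles were up-regulated in ASYM cells (10.8%) and 1857 were down-regulated (10.2%) at an adjusted p under 0.05. A value profile is a probe set, or a group of probe sets that share their values on every array and were counted once. Without SYM replicate 3 the counts were 1435 up-regulated and 1343 down-regulated. The larger changes were mostly rises: 294 profiles were up-regulated at least 2-fold (1.62%) and 85 were down-regulated at least 2-fold (0.468%), or 273 and 89 without that array. Changes of at least 4-fold were found in 41 rises and 10 falls. The median log2 change was -0.06 over all profiles, 0.58 over the up-regulated and -0.48 over the down-regulated. Up-regulated profiles were 51.5% of those called. This share depended on the level assumed common to the arrays: with each array centred on its median, 1715 profiles were up-regulated and 2442 down-regulated, a share of 41.3%. Of the 294 rises of at least 2-fold, 31 started from a SYM mean under 4.29, the 25th percentile of all profile means, and 16 of the 85 falls ended under it in ASYM cells. Levels under 4.29 are called dim, and a change from or to a dim level is a lower bound. In the plot of log2 change against mean level, more points lay beyond 2-fold above 0 than below it, and Ndn lay alone at the bottom.

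**Figure D1:**
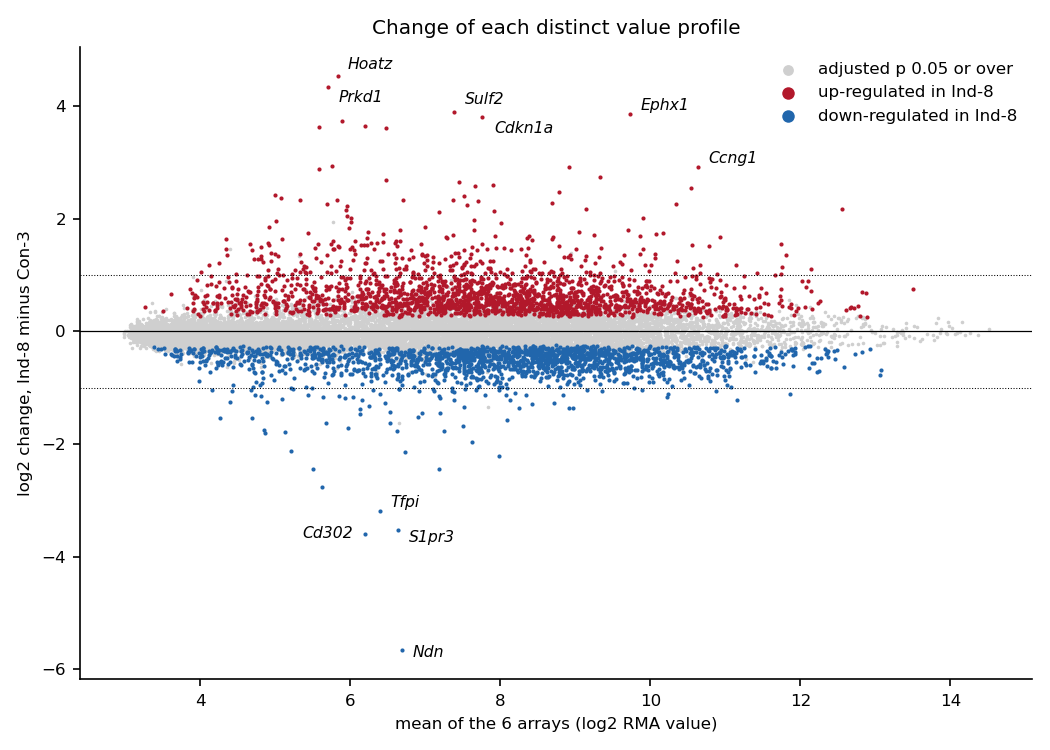
Log2 change (Ind-8 minus Con-3) of each distinct value profile against its mean log2 RMA value over the 6 arrays. Red points were up-regulated and blue points down-regulated at an adjusted p under 0.05 (limma); dotted lines mark 2-fold changes, beyond which lie 294 of the up-regulated and 85 of the down-regulated profiles.

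The gene that defines the lines was checked first. Trp53, the mouse p53 gene, measured 5.68, 5.87 and 5.80 in the ASYM cultures against 5.21, 5.29 and 5.27 in the SYM cultures, and the groups did not overlap. It was higher in ASYM cells by 0.53 on the log2 scale (SE 0.0874, adjusted p 0.0018). What the probes of Trp53 detect of the disrupted gene in SYM cells was not tested. Impdh2, which encodes the type II IMP dehydrogenase, measured 12.16, 12.19 and 12.22 in the ASYM cultures against 12.51, 12.56 and 12.53 in the SYM cultures. It fell by 0.34 (SE 0.0787, adjusted p 0.0112), with all ASYM arrays below all SYM arrays. For its sister gene Impdh1 the change was 0.06 (adjusted p 0.718), which did not pass the test. The metallothionein genes Mt1 and Mt2, which zinc induces, were bright in both lines. Mt1 measured 13.95, 13.88 and 13.81 in the ASYM cultures against 13.72, 13.83 and 13.64 in the SYM cultures, a change of 0.14 (adjusted p 0.373). Mt2 measured 13.36, 13.36 and 13.27 in the ASYM cultures against 13.41, 13.56 and 13.38 in the SYM cultures, a change of -0.12 (adjusted p 0.431).

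The 12 largest rises included 5 genes of the p53 target lists described below. These lists were chosen with earlier results of these data known. The study also names Cdkn1a, Trp53inp1, Ccng1 and Eda2r from these same arrays, so the overlap is no separate finding. Ephx1, the microsomal epoxide hydrolase, measured 11.24, 12.06 and 11.66 in the ASYM cultures against 7.58, 8.05 and 7.77 in the SYM cultures. It rose by 3.85 (SE 0.196, adjusted p 1.24e-06), which is 14.4-fold. The small heat shock protein gene Cryab measured 10.19, 10.80 and 10.12 in the ASYM cultures against 7.66, 7.62 and 7.09 in the SYM cultures and rose by 2.91 (SE 0.212, adjusted p 1.79e-05). The uncharacterised gene 1700020L24Rik measured 8.61, 8.17 and 8.05 in the ASYM cultures against 4.58, 3.89 and 5.57 in the SYM cultures, with the SYM arrays spread more widely than for the other 11 rises, and rose by 3.60 (SE 0.33, adjusted p 7.22e-05). Another 4 of the 12 encode a protein of motile cilia (Hoatz, 4.54), protein kinase D1 (Prkd1, 4.34), a sulfatase that trims extracellular heparan sulfate (Sulf2, 3.89) and an RNA-binding protein of the STAR family (Khdrbs3, 3.63). Rftn1, a lipid raft protein, rose by 2.93. Hoatz, Prkd1, Eda2r, Khdrbs3 and Rftn1 were dim in SYM cells, so that these 5 rises are lower bounds. The dim level is a percentile and not a test of detection. The study also scored Sulf2 and Cdkn1a as absent in SYM cells, so their rises may be lower bounds too.

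Of the 12 largest falls, 4 were in genes of the cell surface or of cell contacts. Cd302, a C-type lectin receptor, measured 4.32, 4.70 and 4.16 in the ASYM cultures against 8.01, 8.01 and 7.95 in the SYM cultures and fell by 3.60 (SE 0.126, adjusted p 9.39e-08). S1pr3, a receptor for sphingosine phosphate, measured 4.85, 5.08 and 4.70 in the ASYM cultures against 8.41, 8.48 and 8.32 in the SYM cultures and fell by 3.53 (SE 0.128, adjusted p 1.04e-07). In neither gene did an ASYM array reach the level of a SYM array. The tight junction gene Cldn1 fell from 6.83, 6.69 and 6.64 in the SYM cultures to 4.15, 4.11 and 4.58 in the ASYM cultures, and the gap junction gene Gjb2 from 7.84, 8.79 and 8.57 to 5.59, 5.99 and 6.32. Both fell by 2.44, with adjusted p 2.92e-06 for Cldn1 and 9.33e-05 for Gjb2. The imprinted gene Ndn, which encodes the growth suppressor necdin, showed the largest change in either direction (-5.66), from 9.55, 9.54 and 9.50 to 3.85, 3.87 and 3.87.

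Others of the 12 falls belonged to metabolism and transcription. Egln3, a prolyl hydroxylase that marks hypoxia-inducible factor for destruction, measured 4.12, 4.11 and 4.46 in the ASYM cultures against 7.26, 6.89 and 6.85 in the SYM cultures and fell by 2.77 (SE 0.147, adjusted p 1.73e-06). Cth, which forms cysteine from cystathionine, measured 6.56, 6.54 and 6.81 in the ASYM cultures against 8.16, 8.78 and 8.88 in the SYM cultures and fell by 1.97 (SE 0.175, adjusted p 6.21e-05). Transcription factors in this group were Osr1, a zinc finger protein of mesoderm and kidney development (-2.21), and the helix-loop-helix protein Bhlhe22 (-2.12). Rab3b, a small GTPase of vesicle release (-2.15), Ssh3, a phosphatase of the cofilin-activating slingshot family (-1.80), and Tfpi, an inhibitor of blood clotting (-3.19), completed the 12. Ndn, Egln3, Cldn1, Bhlhe22 and Ssh3 were dim in ASYM cells, and these 5 falls are lower bounds. The plot of these genes by array shows that in none of them did the groups overlap. They were picked for the size of their change on the same arrays, so the lack of overlap is no separate finding. The same holds wherever it is stated for genes named because they were called. The share of all profiles without overlap was not counted.

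**Figure D2:**
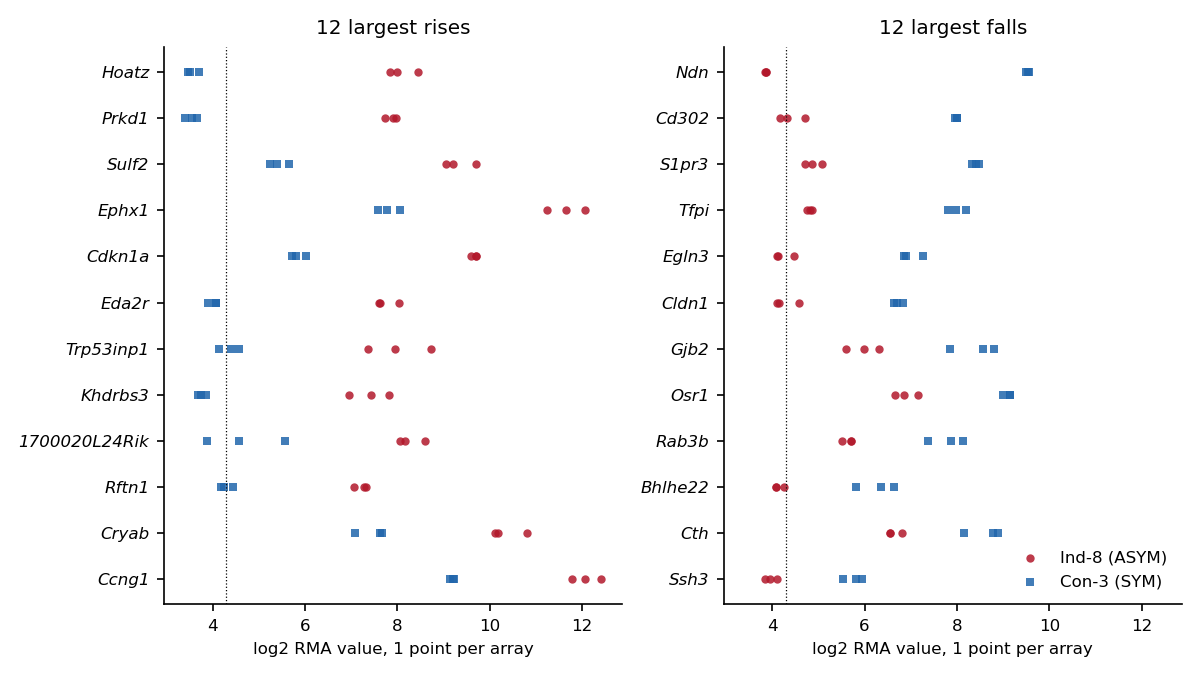
Log2 RMA value on each array of the 12 genes with the largest rise (left) and the 12 with the largest fall (right) in ASYM cells. Red circles are the 3 Ind-8 arrays, blue squares the 3 Con-3 arrays, and the dotted line is the dim level of 4.29.

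Gene lists put these changes into groups. There were 30 lists with 726 genes, of which 681 were measured with a profile of their own. Over all 15540 genes, 11.6% were up-regulated and 10.5% down-regulated, with a median log2 change of -0.05, and each list is read against these values. The lists with the highest medians were the lysosome (0.76) and the 3 lists of p53 targets (0.69, 0.55 and 0.49), and those with the lowest were mitosis (-0.55), DNA replication and DNA damage repair (both -0.42). In the plot of all list members, most other lists lay around the median of all profiles with a few members far to either side.

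The number of calls in each list depended on the test. By the rank product test, falls numbered 8 in DNA replication (29 by limma), 12 in mitosis (34), 2 in DNA damage repair (16), 4 in chromatin and nuclear lamina (14), 2 in G1 regulators (11) and 3 in ribosome biogenesis (8). Rises numbered 7 in the feedback and arrest targets of p53 (8), 6 in the death targets (10), 6 in the metabolic targets (12), 8 in the lysosome (17), 8 in detoxification (11), 2 in matrix proteins (7), 1 in matrix proteases (9) and 2 in the TGF-beta pathway (7). In G1 regulators, smooth muscle and the Wnt pathway 1 rise each was left of 5. Among lists with fewer calls, immediate early genes kept 2 rises of 4, cytokines 1 rise of 3 and 2 falls of 4, the IGF axis 1 rise of 3, and the Wnt pathway and Hox genes 1 fall of 2 each. The rank product test left 0 of the rises in the interferon response (4), the Notch pathway (4), glycolysis and hypoxia (3), cholesterol synthesis, cell polarity and Hox genes (2 each), imprinted genes, DNA damage repair and chromatin (1 each). It also left 0 of the falls in purine synthesis (4), the Notch and TGF-beta pathways (2 each), smooth muscle, immediate early genes and the IGF axis (1 each).

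A stricter threshold had a smaller effect. At an adjusted p under 0.01, limma left 10 falls in DNA damage repair, 9 in chromatin and nuclear lamina, 1 in purine synthesis and 1 in the surface markers, and 0 in the Notch and TGF-beta pathways, smooth muscle, immediate early genes and the IGF axis. The rises were 1 in G1 regulators, 2 in smooth muscle, 3 in matrix proteases, 3 in the Wnt pathway, 2 each in the interferon response, the Notch pathway and immediate early genes, and 0 in glycolysis and hypoxia and in cell polarity. The other lists moved by at most 1.5 times. The counts below are those of limma at an adjusted p under 0.05, without pairing the cultures by replicate number. Genes that passed only with the replicate number in the model are given in the last section. A rise or fall described below as lost without an array lost its call only, and its log2 change kept its direction.

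**Figure D3:**
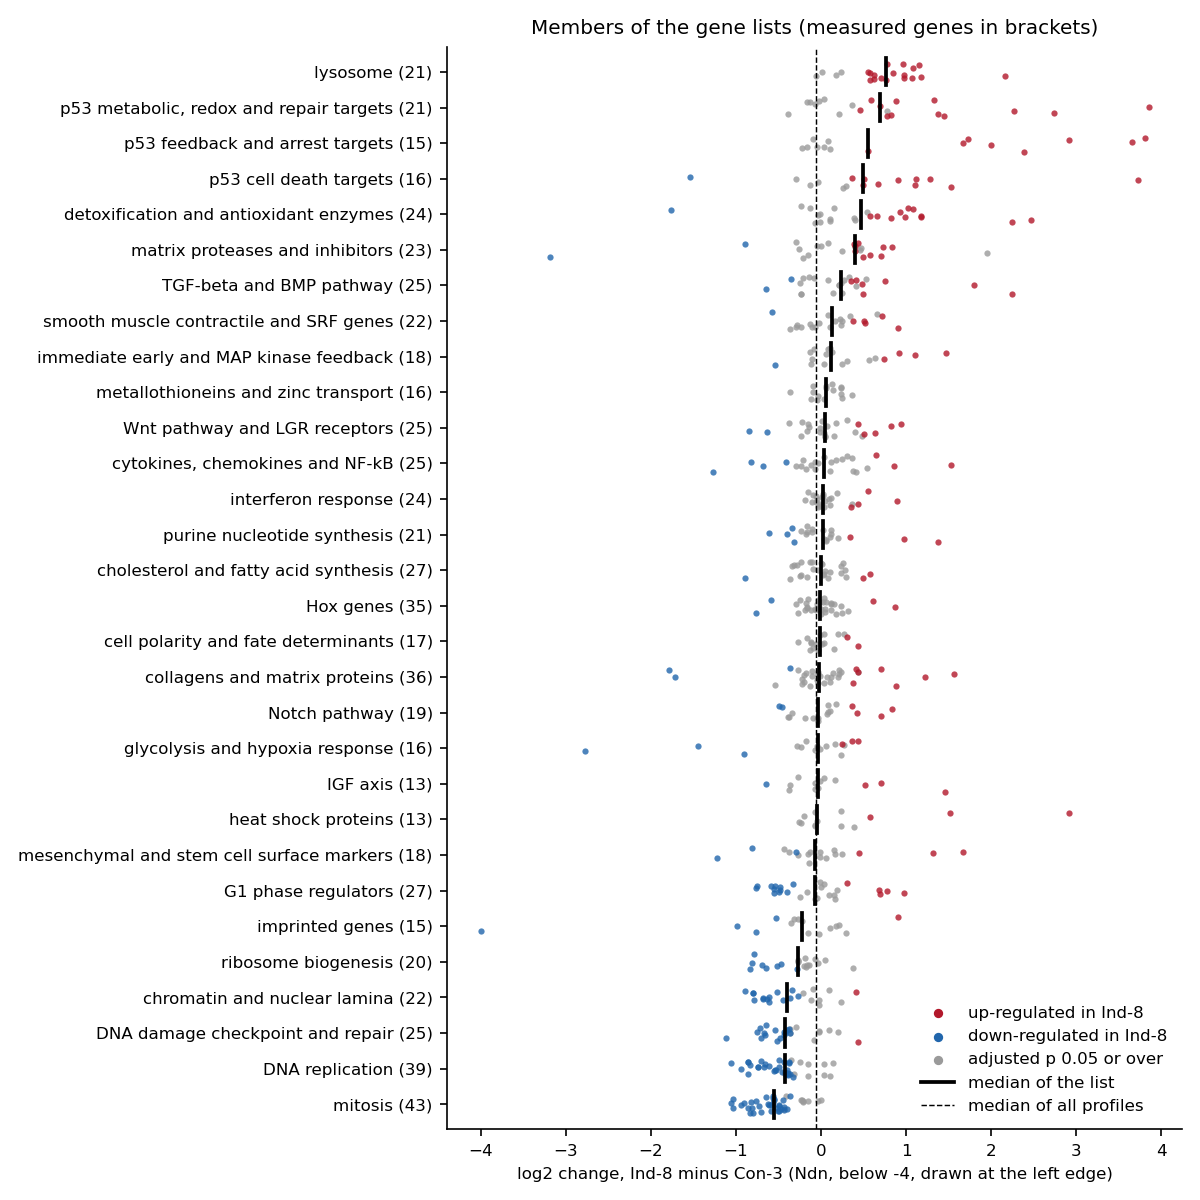
Log2 change (Ind-8 minus Con-3) of each measured member of the 30 gene lists, ordered by their medians from 0.76 (lysosome) to -0.55 (mitosis). Each point is a gene, red or blue where it passed the test (limma, adjusted p under 0.05); thick bars are list medians and the dashed line is the median of all profiles, -0.06.

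Among targets of p53 in feedback and arrest, 8 of 15 measured genes rose (53.3%) and the other 7 did not pass the test, with a median of 0.55. Cdkn1a was the strongest of them. It measured 9.70, 9.70 and 9.59 in the ASYM cultures against 5.73, 5.81 and 6.03 in the SYM cultures, a rise of 3.81 (SE 0.106, adjusted p 1.7e-08). The antiproliferative gene Btg2 measured 8.08, 9.27 and 8.80 in the ASYM cultures against 6.17, 6.45 and 6.34 in the SYM cultures and rose by 2.39 (SE 0.246, adjusted p 0.000133). Ccng1, which encodes cyclin G1, rose by 2.91, and Trp53inp1, a stress protein that acts with p53 in the nucleus, by 3.65. Mdm2, the ubiquitin ligase that degrades p53, measured 10.79, 11.19 and 10.71 in the ASYM cultures against 9.02, 8.79 and 8.87 in the SYM cultures and rose by 2.00 (SE 0.13, adjusted p 8.52e-06). In each of these 5 genes all ASYM arrays lay above all SYM arrays. Some classical targets did not pass the test: for Gadd45a, a growth arrest and DNA damage gene, the change was -0.22 (adjusted p 0.518), and for the p53 phosphatase gene Ppm1d -0.05 (adjusted p 0.807).

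The promoters of 3 of these genes are shown because p53 half-sites lie close to their start. RefSeq windows of 300 bases, 250 before and 50 after a transcript start, were searched on both strands. A p53 half-site was found in 8.36% of all 32851 windows and in 6 of the 18 windows (33.3%) of 14 listed feedback and arrest targets, which is a match of letters and not a measured site. Each line gives 200 bases before and 20 after the start, 5′ to 3′ on the strand of the gene, and capitals mark p53 half-sites. The coordinates (RefSeq, GRCm38.p6) are chr17:29090779-29090998 on the plus strand for Cdkn1a, chr10:117710739-117710958 on the minus strand for Mdm2 and chr11:40755267-40755486 on the minus strand for Ccng1. Cdkn1a has 2 windows, of which one was picked for having the most matches, while Mdm2 and Ccng1 have 1 each. In the window shown for Cdkn1a the matches began 73 and 51 bases before its start. In Mdm2 the match began 186 bases and in Ccng1 185 bases before the start.
Cdkn1a: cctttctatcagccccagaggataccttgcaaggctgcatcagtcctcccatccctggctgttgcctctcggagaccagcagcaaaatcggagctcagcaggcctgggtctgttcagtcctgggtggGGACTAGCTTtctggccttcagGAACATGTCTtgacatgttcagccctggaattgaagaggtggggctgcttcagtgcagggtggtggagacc
Mdm2: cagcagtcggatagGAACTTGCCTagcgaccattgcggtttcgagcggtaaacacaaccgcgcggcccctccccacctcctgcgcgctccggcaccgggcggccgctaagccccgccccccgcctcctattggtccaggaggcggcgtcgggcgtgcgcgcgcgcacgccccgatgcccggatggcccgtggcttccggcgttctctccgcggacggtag
Ccng1: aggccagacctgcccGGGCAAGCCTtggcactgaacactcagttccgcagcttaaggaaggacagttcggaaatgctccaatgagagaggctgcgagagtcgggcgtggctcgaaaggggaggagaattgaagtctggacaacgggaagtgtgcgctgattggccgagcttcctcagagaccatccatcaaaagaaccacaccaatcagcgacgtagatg

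Cell death targets of p53 were up-regulated in 10 of 16 genes (62.5%, median 0.49) and down-regulated in 1. Eda2r, a receptor of the TNF family, measured 7.60, 8.03 and 7.63 in the ASYM cultures against 3.91, 4.08 and 4.07 in the SYM cultures, a rise of 3.73 from a dim level. Fas, the death receptor, measured 6.51, 7.38 and 7.07 in the ASYM cultures against 5.38, 5.34 and 5.65 in the SYM cultures and rose by 1.53 (SE 0.188, adjusted p 0.000379). Tnfrsf10b, the mouse TRAIL receptor, measured 7.23, 7.63 and 7.39 in the ASYM cultures against 6.09, 6.11 and 6.20 in the SYM cultures and rose by 1.28 (SE 0.125, adjusted p 0.000102). The exception was Pmaip1, which encodes the BH3-only protein NOXA. It measured 3.57, 3.52 and 3.38 in the ASYM cultures against 5.73, 4.49 and 4.87 in the SYM cultures and fell by 1.54 (SE 0.244, adjusted p 0.00148) to a dim level, so that a death gene which p53 can activate was lower in every culture with p53. For Perp, a p53 target at cell junctions, both lines were dim and the change was -0.13 (adjusted p 0.486). A half-site was present in 31.2% of the 16 promoter windows of this list, and in 2 of 26 (7.69%) of those of the metabolic, redox and repair targets, which is near the share of all windows.

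Metabolic, redox and repair targets of p53 rose in 12 of 21 genes (57.1%, median 0.69), and the other 9 did not pass the test. Without Ind-8 replicate 1, or with arrays centred on their medians, 1 of these 9 was down-regulated. Beside Ephx1, the largest rise was in Ak1, an adenylate kinase that balances AMP, ADP and ATP. Ak1 measured 10.62, 10.83 and 10.65 in the ASYM cultures against 8.01, 7.95 and 7.90 in the SYM cultures and rose by 2.74 (SE 0.0896, adjusted p 6.16e-08). Cpt1c, a carnitine palmitoyltransferase isoform, measured 9.79, 10.01 and 9.69 in the ASYM cultures against 7.49, 7.61 and 7.57 in the SYM cultures and rose by 2.27 (SE 0.113, adjusted p 1.02e-06). Ddit4, an inhibitor of mTOR signalling, measured 10.87, 10.67 and 10.36 in the ASYM cultures against 9.06, 9.35 and 9.12 in the SYM cultures and rose by 1.45 (SE 0.149, adjusted p 0.000131). These genes show that the rise reached beyond arrest and death genes. The sestrin gene Sesn2 was spread widely, at 7.17, 8.01 and 7.89 in the ASYM cultures against 6.40, 7.25 and 7.08 in the SYM cultures. Its change of 0.78 did not pass the test (adjusted p 0.0565), but it did without Con-3 replicate 2 (adjusted p 0.0454) or Ind-8 replicate 1 (0.0163).

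Genes of DNA replication fell in 29 of 39 measured members (74.4%, median -0.42), and the other 10 did not pass the test. In bulk RNA, fewer cells in S phase and less RNA of these genes per cell cannot be told apart. Rpa2, a subunit of the protein that coats single-stranded DNA, measured 8.82, 8.77 and 8.91 in the ASYM cultures against 9.88, 9.90 and 9.88 in the SYM cultures and fell by 1.06 (SE 0.0831, adjusted p 2.89e-05). Cdc6, which loads the replicative helicase onto origins, measured 8.47, 8.45 and 8.63 in the ASYM cultures against 9.60, 9.39 and 9.36 in the SYM cultures and fell by 0.94 (SE 0.0979, adjusted p 0.000143). Mcm5, a subunit of that helicase, and Pola2, a subunit of the polymerase that starts new strands, both fell by 0.86 (adjusted p 0.000233 and 0.000317). The falls were mostly under 2-fold but spread over origin loading, helicase and polymerase genes. Among the members not called, the helicase gene Mcm6 differed by -0.15 (adjusted p 0.38) and Rpa1 by 0.14 (adjusted p 0.295).

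Mitosis genes were lower still, with 34 of 43 down-regulated (79.1%, median -0.55) and 9 that did not pass the test. Birc5, which encodes survivin of the chromosomal passenger complex, measured 10.47, 10.16 and 10.42 in the ASYM cultures against 11.45, 11.36 and 11.41 in the SYM cultures and fell by 1.06 (SE 0.102, adjusted p 9.83e-05). Its partners in that complex fell with it: Cdca8, which encodes borealin, measured 9.40, 9.16 and 9.54 in the ASYM cultures against 10.29, 10.47 and 10.47 in the SYM cultures and fell by 1.04 (SE 0.109, adjusted p 0.000149), and Incenp fell by 0.94 (SE 0.102, adjusted p 0.000173). Cdc25c, the phosphatase that activates the mitotic kinase, fell by 1.04 (SE 0.101, adjusted p 9.87e-05), and the cyclin A gene Ccna2 by 0.71 (SE 0.0911, adjusted p 0.00049). None of these 5 genes overlapped between the groups. Foxm1, a transcription factor of mitosis genes, measured 8.52, 7.83 and 8.37 in the ASYM cultures against 8.60, 8.75 and 8.60 in the SYM cultures, and its change of -0.41 did not pass the test (adjusted p 0.0961), though it did without Ind-8 replicate 1 (adjusted p 0.0387). For the securin gene Pttg1 the change was -0.21 (adjusted p 0.11), which passed with arrays centred on their medians (-0.26, adjusted p 0.0496).

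The promoters of 3 mitosis genes are shown because 2 short motifs that DREAM and the factor NF-Y are known to read were frequent in this list, the cell cycle homology region TTTGAA and the CCAAT box. On either strand, TTTGAA was present in 17.9% of all windows and in 27 of the 38 windows (71.1%) of 36 mitosis genes, and CCAAT in 37.4% of all windows and in 28 of those 38 (73.7%). In the replication list TTTGAA was found in 5 of 40 windows (12.5%) and CCAAT in 23 (57.5%). CCAAT was also frequent in lists with few calls, in 76.9% of the windows of cholesterol and fatty acid synthesis and in 62.5% of those of Hox genes. In the feedback and arrest targets no window of 18 held TTTGAA. Beside Cdca8, the cyclin-dependent kinase gene Cdk1 (-0.56, adjusted p 0.00172) and the cyclin B gene Ccnb2 (-0.55, adjusted p 0.00134) were chosen for display after their values were seen. All ASYM arrays lay below all SYM arrays in both. Capitals mark TTTGAA and CCAAT on either strand, over 200 bases before and 20 after the start, 5′ to 3′ on the strand of the gene. The coordinates (RefSeq, GRCm38.p6) are chr4:124936898-124937117 for Cdca8, chr10:69352893-69353112 for Cdk1 and chr9:70421535-70421754 for Ccnb2, all on the minus strand.
Cdca8: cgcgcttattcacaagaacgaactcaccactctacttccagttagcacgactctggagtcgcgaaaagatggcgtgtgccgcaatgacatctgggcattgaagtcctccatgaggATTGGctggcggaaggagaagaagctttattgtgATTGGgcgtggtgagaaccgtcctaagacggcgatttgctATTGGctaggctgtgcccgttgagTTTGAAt
Cdk1: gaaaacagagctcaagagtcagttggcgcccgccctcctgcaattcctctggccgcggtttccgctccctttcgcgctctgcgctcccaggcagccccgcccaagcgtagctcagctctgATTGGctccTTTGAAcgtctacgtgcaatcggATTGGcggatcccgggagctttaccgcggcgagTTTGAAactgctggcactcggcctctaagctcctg
Ccnb2: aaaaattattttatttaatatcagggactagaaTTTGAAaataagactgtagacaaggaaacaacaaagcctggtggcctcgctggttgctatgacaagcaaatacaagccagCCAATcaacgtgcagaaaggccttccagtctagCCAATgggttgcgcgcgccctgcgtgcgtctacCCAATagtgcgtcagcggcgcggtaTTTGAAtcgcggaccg

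Where these motifs lay differed between the 3 genes. In Cdk1 the motif TTTGAA began 71 and 15 bases before the start, and CCAAT 80 and 48 bases before it. In Ccnb2 CCAAT began 87, 54 and 21 bases before the start, and TTTGAA 167 bases before it and at base 5 after it. In Cdca8 CCAAT began 85, 51 and 11 bases before the start and TTTGAA at base 14 after it. Whether any factor was bound there in these cells was not tested.

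G1 phase regulators moved in both directions, with 11 of 27 down-regulated (40.7%) and 5 up-regulated (18.5%). Cdk6, the kinase that pairs with D-type cyclins, fell by 0.77 (SE 0.167, adjusted p 0.00798), and E2f8, a repressor of the E2F family, by 0.75 (SE 0.121, adjusted p 0.00169). Cdkn2b, which encodes the inhibitor p15 of that kinase, measured 9.92, 10.43 and 9.94 in the ASYM cultures against 9.08, 9.30 and 9.02 in the SYM cultures and rose by 0.97 (SE 0.141, adjusted p 0.000997). The count of rises moved more than that of falls. The count of 5 was 3 without Con-3 replicate 1 or Ind-8 replicate 3, 2 without Ind-8 replicate 2 and 1 without Con-3 replicate 2 or 3. For the retinoblastoma gene Rb1 the call of the rise (0.77, adjusted p 0.0216) was lost without Con-3 replicate 2 or Con-3 replicate 3 (0.78 and 0.75, adjusted p 0.0558 and 0.0642). Its rise was 0.48 without Ind-8 replicate 2 (adjusted p 0.0225). For the cyclin D gene Ccnd1 the call of the rise (0.31, adjusted p 0.0279) was lost without Con-3 replicate 2, Con-3 replicate 3, Ind-8 replicate 2 or Ind-8 replicate 3 (0.26 to 0.32, adjusted p 0.057 to 0.103). The cyclin E gene Ccne1 (-0.05, adjusted p 0.827), Cdk4 (0.09, 0.518), the p27 gene Cdkn1b (0.15, 0.324) and E2f1 (-0.25, 0.0929) did not pass the test.

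DNA damage checkpoint and repair genes fell in 16 of 25 (64%, median -0.42), and 1 rose. Rad54l, a motor protein of homologous recombination, measured 7.70, 7.29 and 7.57 in the ASYM cultures against 8.71, 8.60 and 8.62 in the SYM cultures and fell by 1.12 (SE 0.114, adjusted p 0.000128). The helicase gene Blm fell by 0.75, the checkpoint adaptor Clspn by 0.72 and the exonuclease gene Exo1 by 0.70 (adjusted p 0.00101, 0.00053 and 0.00109). The checkpoint kinase gene Atr (0.09, adjusted p 0.515) did not pass the test. Fancd2 of the Fanconi anemia pathway missed the threshold (-0.36, adjusted p 0.0525) and passed it without Ind-8 replicate 3 (adjusted p 0.0168). Chromatin and nuclear lamina genes followed the same course, with 14 of 22 down-regulated (63.6%, median -0.40) and 1 up-regulated. The rise was in the A-type lamin gene Lmna (0.41, SE 0.0853, adjusted p 0.00622), so that the lamin genes differed in direction. Suv39h1, a histone methyltransferase of heterochromatin, measured 8.38, 8.40 and 8.59 in the ASYM cultures against 9.31, 9.36 and 9.38 in the SYM cultures and fell by 0.89 (SE 0.0905, adjusted p 0.000126). The histone variant gene H2az1 fell by 0.80, the B-type lamin gene Lmnb1 by 0.80 and the chromatin remodeller Hells by 0.79 (adjusted p 0.000749, 0.000794 and 0.000607). All ASYM arrays were below all SYM arrays for each fall named in these lists.

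**Figure D4:**
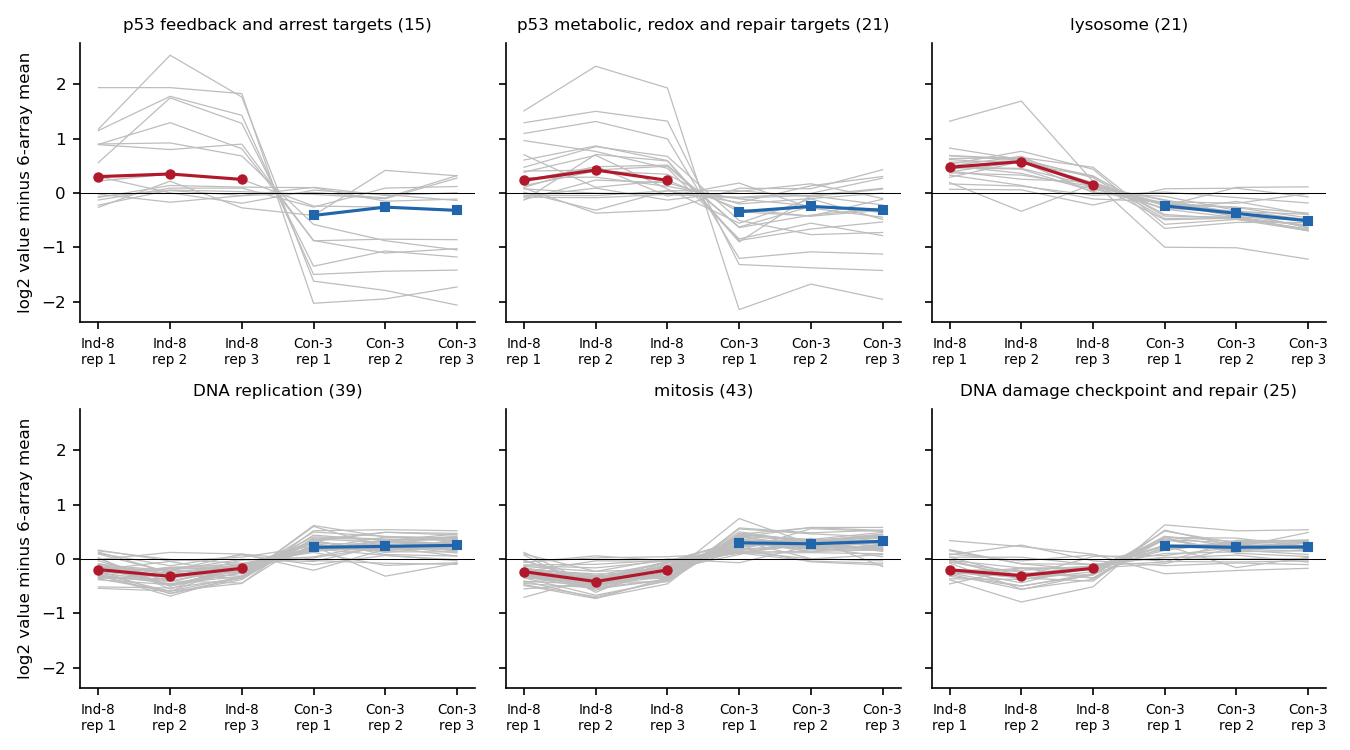
Log2 value minus the 6-array mean of each measured member (grey lines) of 6 gene lists on the 3 Ind-8 and 3 Con-3 arrays, with the median of the list as red circles (Ind-8) and blue squares (Con-3). The medians of the p53 target and lysosome lists lay above 0 on all Ind-8 arrays and below 0 on all Con-3 arrays, and those of DNA replication, mitosis and DNA repair the other way round.

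Plotted by array, these lists separated the lines on every replicate. The plotted lists are among those with the highest and lowest medians in the same contrast. Their separation restates that contrast array by array and is no separate finding. The median deviation of the replication, mitosis and repair lists was below 0 on each ASYM array and above 0 on each SYM array. Members of the p53 lists were spread widely on every array, whereas those of the mitosis and replication lists lay in a narrow band.

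Lysosomal genes rose in 17 of 21 measured members (81%, median 0.76), the highest share of rises among the 30 lists, and the other 4 did not pass the test. Ctsd, the protease cathepsin D, measured 11.29, 11.31 and 11.13 in the ASYM cultures against 10.08, 10.17 and 9.96 in the SYM cultures and rose by 1.18 (SE 0.0933, adjusted p 3e-05). The sialidase gene Neu1 rose by 1.08 (SE 0.15, adjusted p 0.000768). Gpnmb, a glycoprotein of lysosomes and melanosomes, measured 7.26, 7.63 and 6.15 in the ASYM cultures against 4.94, 4.93 and 4.72 in the SYM cultures and rose by 2.16 (SE 0.307, adjusted p 0.00088), with replicate 3 the lowest of the ASYM arrays. In these 3 genes the groups did not overlap. The membrane protein gene Lamp1 was not called (0.17, adjusted p 0.267).

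Detoxification and antioxidant enzymes were up-regulated in 11 of 24 genes (45.8%, median 0.47) and down-regulated in 1. Gsta4, a glutathione transferase for lipid peroxidation products, measured 9.87, 10.70 and 9.46 in the ASYM cultures against 7.43, 7.77 and 7.41 in the SYM cultures and rose by 2.47 (SE 0.333, adjusted p 0.000652). Hmox1, the inducible heme oxygenase, measured 11.77, 11.66 and 10.98 in the ASYM cultures against 9.54, 9.11 and 8.98 in the SYM cultures and rose by 2.25 (SE 0.204, adjusted p 6.59e-05). Aldh2, the mitochondrial aldehyde dehydrogenase, rose by 1.18 (SE 0.106, adjusted p 6.52e-05). The fall was in Adh7, a class of alcohol dehydrogenase that oxidises retinol (-1.76). Nqo1 measured 8.73, 8.55 and 7.36 in the ASYM cultures against 8.50, 7.54 and 6.99 in the SYM cultures, a change of 0.54 (adjusted p 0.398), and Txnrd1 gave 0.39 (adjusted p 0.0523), which passed without Con-3 replicate 1 (adjusted p 0.0244) or Ind-8 replicate 3 (0.042).

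Heat shock genes were raised in 3 of 13 (23.1%, median -0.05), among them 2 of the 4 measured small heat shock genes. Beside Cryab, Hspb1 measured 11.56, 11.15 and 11.24 in the ASYM cultures against 9.98, 9.56 and 9.83 in the SYM cultures and rose by 1.52 (SE 0.137, adjusted p 6.43e-05), and the co-chaperone gene Bag3 rose by 0.57 (SE 0.132, adjusted p 0.0114). The inducible chaperone genes Hspa1a (-0.20, adjusted p 0.47) and Hspa1b (0.39, adjusted p 0.175) did not pass the test. Nor did the small heat shock genes Hspb8 (0.23, adjusted p 0.0884) and Hspb2 (0.24, adjusted p 0.166). Among metallothioneins and zinc transporters limma called 0 of 16 in either direction, with a median of 0.06. At an unadjusted p under 0.05 there were 4 higher and 1 lower, and the rank product test called 0. Without Ind-8 replicate 3, 1 of the 16 was up-regulated. With arrays centred on their medians 1 was down-regulated, and with quantile-normalized arrays or a trend in the limma prior 1 was up-regulated and 1 down-regulated. With 1 profile per gene, or with profiles above the 25th percentile only, 1 was up-regulated. The zinc exporter gene Slc30a1 (-0.10, adjusted p 0.514) and the zinc sensor gene Mtf1 (-0.04, adjusted p 0.755) lay near 0.

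In purine nucleotide synthesis 3 of 21 genes rose (14.3%) and 4 fell (19%), with a median of 0.02. The largest rises were in Adssl1 and Ampd3. Adssl1, a muscle form of adenylosuccinate synthase, measured 6.03, 6.47 and 5.54 in the ASYM cultures against 4.72, 4.70 and 4.49 in the SYM cultures and rose by 1.38 (SE 0.19, adjusted p 0.00075), and the AMP deaminase gene Ampd3 rose by 0.97 (SE 0.134, adjusted p 0.000744). The other adenylosuccinate synthase gene, Adss, fell (-0.32, adjusted p 0.0252). Its call was lost without Con-3 replicate 2, Con-3 replicate 3, Ind-8 replicate 1 or Ind-8 replicate 3 (-0.28 to -0.35, adjusted p 0.0526 to 0.0887). Prps1, which makes the ribose donor of nucleotide synthesis, fell by 0.61 (SE 0.0856, adjusted p 0.000826), in the same direction as Impdh2. Atic, the last enzyme of the common branch, also fell (-0.40, adjusted p 0.0253). Its call was lost without Con-3 replicate 2, Con-3 replicate 3, Ind-8 replicate 1 or Ind-8 replicate 2 (-0.34 to -0.40, adjusted p 0.0679 to 0.0957). The count of 4 falls was 2 without Con-3 replicate 2, Con-3 replicate 3 or Ind-8 replicate 1.

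Ribosome biogenesis genes fell in 8 of 20 (40%, median -0.27). Nolc1, a nucleolar phosphoprotein, fell by 0.83 (SE 0.115, adjusted p 0.000749), and Dkc1, the pseudouridine synthase dyskerin, by 0.81 (SE 0.113, adjusted p 0.000787). The nucleolar genes Noc2l and Nop56 fell by 0.79 and 0.69 (adjusted p 0.00132 and 0.00105). The other 12 did not pass the test, of which 1 was up-regulated without Ind-8 replicate 2, with 1 profile per gene, with profiles above the 25th percentile only or with a trend in the limma prior. The nucleolin gene Ncl was among these 12 (-0.27, adjusted p 0.0609) and passed without Ind-8 replicate 1 (adjusted p 0.0377). Glycolysis and hypoxia genes rose in 3 of 16 and fell in 3 (18.8% each way). The falls were larger than the rises: beside Egln3, the vasodilator peptide gene Adm measured 5.90, 6.32 and 6.49 in the ASYM cultures against 7.30, 7.87 and 7.88 in the SYM cultures and fell by 1.45 (SE 0.18, adjusted p 0.000424), and the phosphofructokinase gene Pfkp fell by 0.90 (SE 0.132, adjusted p 0.000997). Hexokinase gene Hk1 rose by 0.44 (SE 0.102, adjusted p 0.0119), and the count of rises was 1 without Ind-8 replicate 2. The hypoxia targets Vegfa (0.27, adjusted p 0.308) and Slc2a1 (-0.28, adjusted p 0.104) did not pass.

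In cholesterol and fatty acid synthesis 2 of 27 genes were up-regulated (7.41%) and 1 was down-regulated (3.7%), with a median of 0.00. The shares over all genes were 11.6% and 10.5%, and the difference from them was not tested. At an unadjusted p under 0.05 there were 4 higher and 5 lower. The regulator Srebf1 rose by 0.57 (SE 0.0972, adjusted p 0.00224). Stard4, a carrier of cholesterol within the cell, fell by 0.89 (SE 0.135, adjusted p 0.00121), and without Ind-8 replicate 3 the count of falls was 2. Hmgcs1 (0.24, adjusted p 0.102) was not called.

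Matrix genes differed among themselves in direction. Of 36 collagens and matrix proteins, 7 rose (19.4%) and 3 fell (8.33%), with a median of -0.02. Loxl2, a lysyl oxidase that crosslinks collagen, measured 4.15, 4.05 and 4.49 in the ASYM cultures against 5.64, 6.13 and 6.30 in the SYM cultures and fell by 1.79 (SE 0.167, adjusted p 8.1e-05) to a dim level, whereas the related gene Loxl3 measured 9.88, 9.94 and 9.78 in the ASYM cultures against 8.65, 8.63 and 8.68 in the SYM cultures and rose by 1.22 (SE 0.0878, adjusted p 1.72e-05). Postn, the matrix protein periostin, measured 5.29, 4.74 and 5.30 in the ASYM cultures against 7.16, 6.42 and 6.91 in the SYM cultures and fell by 1.72 (SE 0.206, adjusted p 0.000326). The fibrillar collagen gene Col11a1 rose by 1.56 (SE 0.201, adjusted p 0.000513) from a dim level, and the fibronectin gene Fn1 by 0.70 (SE 0.0825, adjusted p 0.000292). The main fibroblast collagens Col1a1 (0.43, adjusted p 0.143) and Col1a2 (0.23, adjusted p 0.481) did not pass the test. Lox (-0.54, adjusted p 0.1) passed without Ind-8 replicate 3 (adjusted p 0.00793).

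Matrix proteases and their inhibitors rose in 9 of 23 (39.1%) and fell in 2 (8.7%), with a median of 0.40. The count of 9 was 5 without Con-3 replicate 2 or 3 and 4 without Ind-8 replicate 2, and without Ind-8 replicate 3 the count of falls was 4. Mmp11, the protease stromelysin-3, rose by 0.83 (SE 0.107, adjusted p 0.000507), and Timp3, a matrix-bound inhibitor of these enzymes, measured 8.77, 9.16 and 9.29 in the ASYM cultures against 10.15, 9.78 and 9.97 in the SYM cultures and fell by 0.89 (SE 0.14, adjusted p 0.00146). Mmp3 measured 5.94, 6.24 and 5.48 in the ASYM cultures against 5.49, 4.94 and 5.03 in the SYM cultures, and the groups overlapped. Its rise of 0.73 (adjusted p 0.0487) was lost without Con-3 replicate 2, Con-3 replicate 3, Ind-8 replicate 1 or Ind-8 replicate 2 (adjusted p 0.117 to 0.176). The collagenase gene Mmp13 was the most variable of the list, at 7.97, 6.87 and 5.38 in the ASYM cultures against 6.29, 4.20 and 3.89 in the SYM cultures. Its change of 1.95 did not pass (adjusted p 0.0681) but did without Con-3 replicate 1 (adjusted p 0.0113) or Ind-8 replicate 3 (0.0155).

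Smooth muscle and SRF genes rose in 5 of 22 (22.7%) and fell in 1 (4.55%), with a median of 0.13. Mrtfa, a coactivator of SRF that responds to actin, rose by 0.90 (SE 0.148, adjusted p 0.00182) and the smoothelin gene Smtn by 0.52 (SE 0.122, adjusted p 0.0122). The rise of Lmod1 (0.72, adjusted p 0.0492) was lost without Con-3 replicate 1, Con-3 replicate 2, Con-3 replicate 3, Ind-8 replicate 1 or Ind-8 replicate 3 (adjusted p 0.0794 to 0.148). The fall of the coactivator gene Myocd (-0.58, adjusted p 0.0197) was lost without Con-3 replicate 1, Ind-8 replicate 1 or Ind-8 replicate 2 (adjusted p 0.0553 to 0.0789). The count of rises was 3 without Con-3 replicate 2 or Ind-8 replicate 3, and that of falls 0 without Con-3 replicate 1, Ind-8 replicate 1 or Ind-8 replicate 2 and 2 without Ind-8 replicate 3. The contractile genes Tagln (0.25, adjusted p 0.282) and Cnn1 (0.34, adjusted p 0.224) did not pass.

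Signalling lists showed strong single members. In the TGF-beta and BMP pathway 7 of 25 rose (28%) and 2 fell (8%), with a median of 0.24. Fst, the secreted activin antagonist follistatin, measured 8.56, 8.67 and 8.80 in the ASYM cultures against 6.97, 6.09 and 6.25 in the SYM cultures and rose by 2.24 (SE 0.201, adjusted p 6.43e-05). Ltbp2, a binding protein of the matrix related to those that hold latent TGF-beta, measured 10.91, 10.40 and 10.51 in the ASYM cultures against 9.32, 8.40 and 8.69 in the SYM cultures and rose by 1.80 (SE 0.21, adjusted p 0.000275). The BMP target gene Id1 rose by 0.75 (SE 0.15, adjusted p 0.00522). The fall of Fstl3 (-0.65, adjusted p 0.0218) was lost without Con-3 replicate 3 or Ind-8 replicate 2 (adjusted p 0.0629 and 0.0881). The count of falls was 0 without Con-3 replicate 3 and 1 without Con-3 replicate 2, Ind-8 replicate 1 or Ind-8 replicate 2. Tgfb1 itself was not called (-0.24, adjusted p 0.356).

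In the Wnt pathway 5 of 25 genes rose (20%) and 2 fell (8%), with a median of 0.05. Lgr6, a receptor for R-spondins, measured 7.41, 7.46 and 7.12 in the ASYM cultures against 6.90, 6.03 and 6.23 in the SYM cultures and rose by 0.94 (SE 0.191, adjusted p 0.00574), whereas its relatives Lgr4 (-0.14, adjusted p 0.44) and Lgr5 (0.01, adjusted p 0.973) did not pass the test. The ligand gene Wnt5a rose by 0.82 (SE 0.163, adjusted p 0.00527). The secreted Wnt regulators Dkk2 and Sfrp2 fell by 0.85 and 0.63 (adjusted p 0.00052 and 0.00884). Axin2, a target gene of the pathway, gave 0.07 (adjusted p 0.628).

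Notch pathway genes rose in 4 of 19 (21.1%) and fell in 2 (10.5%), with a median of -0.03. The receptor genes Notch1 and Notch3 rose by 0.83 and 0.70 (adjusted p 0.000457 and 0.00057). Notch1 measured 7.51, 7.75 and 7.69 in the ASYM cultures against 6.80, 6.75 and 6.93 in the SYM cultures. The ligand gene Dll4 fell by 0.49 and Rfng, which adds sugars to the receptors, by 0.46 (adjusted p 0.012 and 0.0102). The receptor gene Notch2 (0.08, adjusted p 0.601) and the target gene Hes1 (0.18, adjusted p 0.521) did not pass, and the count of rises was 2 without Con-3 replicate 1, Con-3 replicate 3 or Ind-8 replicate 3. Among determinants of polarity and cell fate, 2 of 17 rose (11.8%), near the share over all genes. The rise of Numbl, a NUMB-like adaptor (0.43, adjusted p 0.0241), was lost without Con-3 replicate 1, Ind-8 replicate 1 or Ind-8 replicate 3 (adjusted p 0.0656 to 0.0732). That of the RNA-binding gene Stau1 (0.30, adjusted p 0.0357) was lost without Con-3 replicate 1, Con-3 replicate 2, Con-3 replicate 3, Ind-8 replicate 1 or Ind-8 replicate 2 (adjusted p 0.0531 to 0.12). The count of 2 was 0 without Con-3 replicate 1 or Ind-8 replicate 1 and 1 without any of the other 4 arrays. For the polarity scaffold gene Pard3 the change was 0.15 (adjusted p 0.307).

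The IGF axis had 3 of 13 genes raised (23.1%) and 1 lowered (7.69%), with a median of -0.04. Igf2r, the receptor that clears IGF2 and carries enzymes to lysosomes, measured 8.96, 9.17 and 8.90 in the ASYM cultures against 7.56, 7.69 and 7.40 in the SYM cultures and rose by 1.46 (SE 0.106, adjusted p 1.79e-05). The binding protein gene Igfbp6 rose by 0.71 (SE 0.111, adjusted p 0.00146). The rise of the adaptor gene Irs1 (0.52, adjusted p 0.0139) was lost without Ind-8 replicate 2 (adjusted p 0.0596). The fall of the ligand gene Igf1 (-0.65, adjusted p 0.0425) was lost without Con-3 replicate 2, Con-3 replicate 3, Ind-8 replicate 1, Ind-8 replicate 2 or Ind-8 replicate 3 (adjusted p 0.0585 to 0.134), and it was -0.43 without Con-3 replicate 2. The count of falls was 2 without Con-3 replicate 1 and 0 without any of the other 5 arrays. Igf1r was not called (0.16, adjusted p 0.263). Imprinted genes fell in 4 of 15 (26.7%) and rose in 1 (6.67%), with a median of -0.22. Beside Ndn, the zinc finger gene Peg3 measured 4.08, 4.24 and 4.30 in the ASYM cultures against 5.13, 5.18 and 5.27 in the SYM cultures. It fell by 0.99 (SE 0.104, adjusted p 0.000156) to a dim level, so that this fall is a lower bound. The amino acid transporter gene Slc38a4 fell by 0.77 (SE 0.121, adjusted p 0.00148). Sgce, which encodes a sarcoglycan, rose by 0.90 (SE 0.144, adjusted p 0.0016). Mest gave 0.29 (adjusted p 0.194).

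Cytokine, chemokine and NF-kB genes rose in 3 of 25 (12%) and fell in 4 (16%), with a median of 0.04. Among the falls, Il1rl1 (-0.68) has another profile that was called the opposite way, and Ackr3 (-0.41) was dim in both lines. Cxcr6, a chemokine receptor, measured 5.35, 5.76 and 5.95 in the ASYM cultures against 4.23, 4.03 and 4.21 in the SYM cultures and rose by 1.53 (SE 0.146, adjusted p 9.12e-05) from a dim level. The membrane-bound chemokine gene Cx3cl1 rose by 0.86 (SE 0.115, adjusted p 0.000613). Cd14, a coreceptor for lipopolysaccharide, measured 8.41, 8.22 and 7.61 in the ASYM cultures against 9.58, 9.31 and 9.16 in the SYM cultures and fell by 1.27 (SE 0.192, adjusted p 0.00119). Tnfaip3, an inhibitor of NF-kB, fell by 0.82 (SE 0.13, adjusted p 0.00147). Il6 was dim in both lines, and the count of rises was 5 without Con-3 replicate 1. Interferon response genes rose in 4 of 24 (16.7%, median 0.02), a count that was 2 without Con-3 replicate 3 or Ind-8 replicate 2. B2m, the light chain of class I histocompatibility molecules, measured 12.56, 12.59 and 12.26 in the ASYM cultures against 11.77, 11.51 and 11.45 in the SYM cultures and rose by 0.89 (SE 0.12, adjusted p 0.000661). For Irf9 (0.55, adjusted p 0.0134) and Ddx58 (0.35, adjusted p 0.026) the call was lost with some arrays left out, while the change stayed of similar size. Irf9 gave 0.50 without Con-3 replicate 3 and 0.49 without Ind-8 replicate 2 (adjusted p 0.052 and 0.0574). Ddx58 gave 0.29 to 0.36 without Con-3 replicate 1, Con-3 replicate 3, Ind-8 replicate 2 or Ind-8 replicate 3 (adjusted p 0.0549 to 0.0969). The classical target Ifit1 was not called (0.36, adjusted p 0.22).

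Immediate early and MAP kinase feedback genes rose in 4 of 18 (22.2%) and fell in 1 (5.56%), with a median of 0.12. Egr2, a zinc finger factor of growth responses, measured 6.91, 7.38 and 5.89 in the ASYM cultures against 5.59, 5.25 and 4.93 in the SYM cultures and rose by 1.47 (SE 0.319, adjusted p 0.00832), and the AP-1 gene Junb rose by 0.74 (SE 0.13, adjusted p 0.00274). For Fos the rise of 1.10 (adjusted p 0.0358) was lost without Con-3 replicate 1, Con-3 replicate 2, Con-3 replicate 3, Ind-8 replicate 2 or Ind-8 replicate 3 (adjusted p 0.0509 to 0.137). For the MAP kinase phosphatase gene Dusp6 the rise of 0.92 (adjusted p 0.0278) was lost without Con-3 replicate 2, Con-3 replicate 3, Ind-8 replicate 1 or Ind-8 replicate 2 (adjusted p 0.0849 to 0.104). The count of rises was 2 without Con-3 replicate 2, Con-3 replicate 3 or Ind-8 replicate 2, and that of falls 0 without Con-3 replicate 1, Con-3 replicate 3, Ind-8 replicate 2 or Ind-8 replicate 3. Egr1 did not pass (0.63, adjusted p 0.182), but did with the Ind-8 and Con-3 arrays only (adjusted p 0.0386). Hox genes, which record the position a fibroblast comes from, were called in few cases: 2 of 35 rose (5.71%) and 2 fell (5.71%), with a median of -0.01. Hoxd12 and Hoxd10 rose by 0.87 and 0.61 (adjusted p 0.00266 and 0.00879), while Hoxd8 and Hoxa9 fell by 0.77 and 0.59 (adjusted p 0.00428 and 0.00151).

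Surface markers of mesenchymal and stem cells rose in 3 of 18 (16.7%) and fell in 3 (16.7%), with a median of -0.07. Ly6a, the stem cell antigen Sca-1, measured 10.97, 12.27 and 12.05 in the ASYM cultures against 9.46, 10.68 and 10.14 in the SYM cultures and rose by 1.67 (SE 0.342, adjusted p 0.0061), and the adhesion molecule gene Alcam rose by 1.32 (SE 0.145, adjusted p 0.000196). Tfrc, the transferrin receptor that brings iron into dividing cells, measured 7.13, 7.51 and 7.90 in the ASYM cultures against 9.10, 8.34 and 8.76 in the SYM cultures and fell by 1.22 (SE 0.21, adjusted p 0.00239), and Cd34 fell by 0.81 (SE 0.193, adjusted p 0.0136). The integrin gene Itgb1 was not called (0.15, adjusted p 0.318). A further group holds genes in no list that the study names from these same arrays, so that their rises are no separate finding. The guidance receptor gene Robo1 measured 6.69, 7.19 and 6.56 in the ASYM cultures against 4.39, 4.93 and 4.35 in the SYM cultures and rose by 2.26 (SE 0.184, adjusted p 3.48e-05), and Ephb6, an ephrin receptor without kinase activity, rose by 1.49 (SE 0.207, adjusted p 0.000776). F11r, a junctional adhesion molecule, rose by 2.04, the forkhead gene Foxs1 by 1.56 and Plxdc2 by 0.95 (adjusted p 9.33e-05, 0.000173 and 0.00095). The study scored F11r and Foxs1 as absent in SYM cells, and Plxdc2 and Ephb6 as undetectable there. The rises of F11r, Foxs1, Plxdc2 and Ephb6 may therefore be lower bounds.

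Cell type markers were read to check the labelled cell type. Fibroblast markers were bright, led by Vim at a mean of 13.96, while Fap and Thy1 were dim in both lines. Of 10 measured, 2 rose (Fn1 and Pdgfrb) and 1 fell. The fall of Thy1 (-0.30, adjusted p 0.0458) was lost when any array was left out (adjusted p 0.0575 to 0.153). Pdgfrb, the platelet-derived growth factor receptor, rose by 0.38 (SE 0.086, adjusted p 0.00985). The brightest epithelial marker was Krt5 at a mean of 5.14, with Epcam and Cdh1 dim. Blood cell (Cd3e, 5.34), skeletal muscle (Des, 5.99), neural (Rbfox3, 4.54) and pluripotency markers (Pou5f1, 3.91) also had means below the array medians. The endothelial marker Kdr measured 5.91, 5.76 and 5.83 in the ASYM cultures against 6.20, 6.03 and 6.24 in the SYM cultures, with the 4 other endothelial markers dim, and its change of -0.32 (adjusted p 0.0385) was no longer called without Con-3 replicate 1, Con-3 replicate 3, Ind-8 replicate 1, Ind-8 replicate 2 or Ind-8 replicate 3 (adjusted p 0.0518 to 0.126).

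Of the 3 measured fat cell markers 1 was called, and of the 4 cartilage markers none. Fabp4, a fatty acid carrier of fat cells and macrophages, measured 8.22, 8.07 and 7.31 in the ASYM cultures against 5.92, 5.56 and 5.15 in the SYM cultures and rose by 2.32 (SE 0.259, adjusted p 0.000213). The other measured fat cell markers, Adipoq and Lep, were dim in both lines. Summed on the linear scale, the 3 measured fat cell markers gave 318, 289 and 179 in the ASYM cultures against 84.6, 69.8 and 55.9 in the SYM cultures. Col2a1, the main cartilage collagen, had a mean of 11.74 and did not pass the test, and the 4 cartilage markers summed to 3711, 2502 and 3611 in the ASYM cultures against 4849, 3353 and 4081 in the SYM cultures. What these signals contributed to the results above was not tested.

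Called genes were not spread evenly over the chromosomes, which was examined after the data were seen. Among the 11930 genes above the dim level, 14.7% were up-regulated and 13.2% down-regulated. On chromosome 16, 118 of 371 genes were up-regulated (31.8%) and 40 down-regulated (10.8%), with a median log2 change of 0.12. On chromosome 18, 9 of 282 genes were up-regulated (3.19%) and 97 down-regulated (34.4%), with a median of -0.22. On chromosome 19, 26 of 434 were up-regulated (5.99%) and 105 down-regulated (24.2%), with a median of -0.15. The shift was present on each array. The median deviation of chromosome 16 genes from their 6-array mean was 0.08, 0.07 and 0.09 in the ASYM cultures against -0.06, -0.08 and -0.08 in the SYM cultures. For chromosome 18 it was -0.11, -0.05 and -0.15 in the ASYM cultures against 0.16, 0.10 and 0.06 in the SYM cultures. Chromosome 4 (7.59% up, 21.6% down) and the X chromosome (9.4% up, 21.1% down) leaned the same way as chromosome 19 with medians of -0.13 and -0.11, as the bars by chromosome show.

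**Figure D5:**
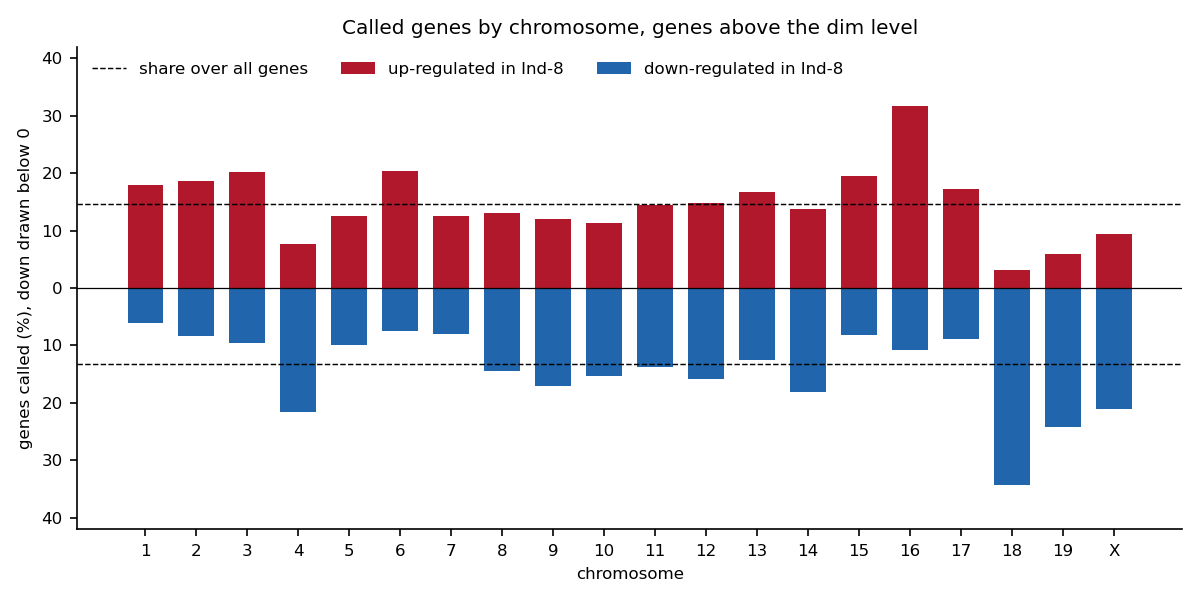
Percent of genes above the dim level that were up-regulated (red, above 0) or down-regulated (blue, below 0) in ASYM cells, by chromosome. Dashed lines are the shares over all 11930 such genes, 14.7% and 13.2%; chromosome 16 reached 31.8% up and chromosome 18 34.4% down.

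The gene groups were therefore counted again without the genes of chromosomes 16, 18 and 19. There the median had shifted by more than 0.1 beyond that of all genes. Chromosomes 4 and X, whose medians had shifted by less, were kept, so the counts below are not free of their lean towards falls. Of the remaining 14114 genes, 1642 were up-regulated (11.6%) and 1376 down-regulated (9.75%). Mitosis then had 29 of 38 genes down-regulated (median -0.52), DNA replication 26 of 33 (median -0.42) and the lysosome 17 of 20 up-regulated (median 0.76). The 15 feedback and arrest targets, none of which lies on those chromosomes, kept 8 rises, and the death targets had 9 rises of 14 and 0 falls, against 1. Detoxification had 8 rises of 19, and chromatin and nuclear lamina 12 falls of 20. Smooth muscle rises were 3 instead of 5, TGF-beta falls 1 instead of 2 and cholesterol falls 0 instead of 1, and no other list count moved by more than 1.5 times. Of the genes named above as called, Cldn1, Robo1, Alcam and Tfrc lie on chromosome 16, Pmaip1, Cdc25c, Cd14, Lmnb1, Stard4 and Pdgfrb on chromosome 18, and Fas, Incenp, Pola2, Hells, Nolc1 and Ssh3 on chromosome 19. On chromosome 4, which was kept, lie Rpa2, Rad54l, Cdca8, Clspn, Noc2l and Rab3b, which fell, and Trp53inp1, Cdkn2b and Ddx58, which rose. On X lie Suv39h1, Dkc1 and Prps1, which fell, and Eda2r, which rose. Whether the uneven spread over chromosomes goes with the state or with the clone cannot be told apart.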

How the data were processed

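Gene expression was measured on Affymetrix mouse 430 arrays. The authors ran RMA on probe sets regrouped by RefSeq transcript and deposited log2 values, which were used without renormalizing. The 64 control rows (AFFX) were left out, and the other 22523 probe sets were reduced to 18172 profiles by counting those with identical values (to 6 decimals) once. Names came from a RefSeq table of GRCm38.p6, which matched 18294 probe sets. No filter on low values was used. The model of limma 3.58.1 (R 4.3.3) had 3 line means over all 8 arrays, with Benjamini-Hochberg adjustment over all profiles. Tables and figures were made in Python 3.11.15. Each gene is represented by its brightest profile over all 8 arrays. An array has no sequencing depth, and the number of arrays limits the precision. The p-values measure only the spread between these cultures.

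Named genes are label checks, the 12 largest rises and the 12 largest falls, up to 4 called members of each list with the largest change, list members needed to say what was not called, genes that the study names, and cell type markers. Some genes that these rules pick are not reported here. Members and lists were chosen with earlier results of these data known. The alternatives were a rank product test (100 permutations, pfp under 0.05), an adjusted p under 0.01, the replicate number as a block, a trend in the prior, the Ind-8 and Con-3 arrays only, centred or quantile-normalized arrays, control rows kept, identical rows each counted, profiles above the 25th percentile, 1 profile per gene, and each array left out. Leaving out genes of chromosomes 16, 18 and 19 was chosen after seeing the data.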

Additional observations from a re-analysis of the deposited data

How the results depend on the processing

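The called counts moved by more than 1.5 times under 2 alternatives. The rank product test called 394 profiles up-regulated and 279 down-regulated, and an adjusted p under 0.01 left 1119 and 941. With 1 array left out, the up-regulated counts ran from 1407 to 1838 and the down-regulated ones from 1270 to 1688, and for changes of at least 2-fold from 255 to 372 and from 79 to 98. The cause was not tested. Of the 143 named genes called, none turned its direction under the 18 alternatives, and 94 were also called by the rank product test and 118 at an adjusted p under 0.01. The rank product test also called Mmp13, which limma did not. Among the 49 genes reported above as not passing the test, 3 changed sign. Cell type markers given only by their level, such as Krt5, were not counted here. Lgr5 (0.01) gave -0.04 with centred arrays and from -0.03 to 0.06 with 1 array left out, being negative without Con-3 replicate 2 (-0.03), Ind-8 replicate 1 (-0.03) or Ind-8 replicate 3 (-0.01). Ccne1 (-0.05) ran from -0.17 to 0.12, positive without Ind-8 replicate 2, and Impdh1 (0.06) from -0.01 to 0.16, negative without Ind-8 replicate 3. Deviations from the line means correlated across profiles, which are not independent, at 0.26, 0.02 and 0.37 for equal replicate numbers. For unequal numbers the correlations ran from -0.40 to 0.13. Equal numbers 1 and 3 lay above every unequal pair and number 2 did not. These values cannot tell whether the replicate numbers pair the cultures. With them as a block, 2194 profiles were up-regulated and 2027 down-regulated, no named call was lost, and 8 named genes that the fit without it did not call passed: Nqo1 (adjusted p 0.024), Txnrd1 (0.0441), Sesn2 (0.000703), Mmp13 (0.000562), Col1a1 (0.00678), Lox (0.0298), Hspa1b (0.0448) and Fancd2 (0.0337). The block also gave 1 rise in ribosome biogenesis (0 without it) and 2 falls in the IGF axis (1 without it). With the Ind-8 and Con-3 arrays only, Igf1 (0.0623) and Thy1 (0.0524) were lost and Egr1 (0.0386) gained. Quantile-normalized arrays lost Igf1, Lmod1, Mmp3, Numbl and Thy1 (adjusted p 0.0545 to 0.11), centred arrays Lmod1, Mmp3 and Stau1 (0.0574 to 0.0624), and a trend in the prior Kdr (0.0636). Each of these 3 also gained 3 calls: centred arrays Fancd2 (0.0288), Ncl (0.0304) and Pttg1 (0.0496), quantile-normalized arrays Fancd2 (0.0338), Ncl (0.0379) and Txnrd1 (0.0408), and the trend Ncl (0.0272), Sesn2 (0.0484) and Txnrd1 (0.0336). Profiles above the 25th percentile gained Fancd2 (0.044), Sesn2 (0.047) and Txnrd1 (0.0438), and 1 profile per gene Fancd2 (0.0482) and Txnrd1 (0.048). Among list counts, falls in smooth muscle were 2 with centred arrays or a trend, against 1, falls in the IGF axis 2 with centred and 0 with quantile-normalized arrays, and rises in cell polarity 1 with either, against 2. The fall among death targets was of a profile under the 25th percentile.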
